A study of Mus musculus with 4 samples.

Results

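Axon guidance genes encode the extracellular cues that steer growing nerve fibres and the receptors that read them. The members were the 59 autosomal genes whose array name belonged to the semaphorin, plexin, neuropilin, Slit, Robo, ephrin, Eph, netrin, Unc5, Dcc or Sidekick families, 59 of the 16949 gene names on the arrays, with 331 of 83122 probes. The rule used the names and no signal, but the families were picked with earlier results of these data known. The DNA was genomic, taken from intestine of mice of the inbred strain C57BL/6 at 3 or 32 months of age, and a slide note on one array calls both ages WT. On each of 2 arrays the younger DNA was labelled green (Cy3) and the older red (Cy5), with 1 sample per age and array, so that 4 sample records hold 2 comparisons of different chromosomes. The array labelled for chromosomes 1 to 8 is called the first below, and the other, with chromosomes 9 to 19, X and Y, the second. Sex, the number of animals behind a sample, and how DNA was selected by its methylation could not be read from the labels and headers, so values are given as signal and not as methylation. There was no replicate and no exchange of dyes, so each difference is between single samples with no test, and every SD below is a spread over neighbouring probes.

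Semaphorins act through plexin receptors, with neuropilins as co-receptors for the secreted members, and Slits act through Robo receptors. Netrins bind Dcc, which mediates attraction, and the Unc5 receptors, which mediate repulsion, while ephrins are membrane-bound ligands of the Eph receptor tyrosine kinases. Outside the nervous system these families set boundaries between cells, and in the intestine EphB receptors and their ephrin-B ligands position epithelial cells along the crypt. Promoters of several of these genes are known targets of DNA methylation in tumours of the colon.

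Of the 59 genes, 57 were measured, in 60 regions. A region joins probes of a gene at most 1000 bp apart, needs at least 2 usable probes, and takes their median log2 ratio of 32-month over 3-month signal, centred on the array median. It was called higher when this median reached 1 or more and all its usable probes lay above 0, and lower in the mirrored case. By this rule 6 genes were called higher at 32 months, namely Sdk2, Efna5, Epha6, Robo2, Sema5b and Plxnb1, and none was called lower. That is 10.5% of the measured members, beside 2.33% of 14018 autosomal genes called higher and 0.628% called lower. By region, 6 of 60 (10%) were called higher, beside 2.05% of 14835, and 0 lower, beside 0.519%. By the median alone 9 regions (15%) reached 1, beside 3.03%, and 0 reached -1, beside 0.836%. Unc5c and Epha10 had medians above those of most called members, but 1 and 2 of their probes lay below 0. Most of the other members stood near 0, with 44 of the 60 regions within 0.5 of it.

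The sequences around the start sites of the members with the highest ratios show what the leading probes read. RefSeq promoter windows of assembly GRCm38.p6, from 250 bases before to 50 after a gene's start, were found for 49 of the 59 genes, and 28 member probes of 24 genes occurred in them in full, letter for letter. Of these 28 probes 7 had a log2 ratio of at least 1, from 3.77 to 6.77, and they belonged to 5 genes, Unc5c, Robo2, Epha6, Efna5 and Epha10. The other 21 lay between -0.83 and 0.58. The share among matched probes of all genes was not computed. Of all autosomal probes that the array design annotates as promoter 6.19% read at least 1. Each of the 5 genes had a region median of at least 1, so these probes restate the values of those regions. Windows are shown for 4 of these genes and for Ephb2, an intestinal Eph receptor without a higher ratio, with the stretch that a probe covers in capitals.
Unc5c promoter, chr3:141465314-141465613, plus strand: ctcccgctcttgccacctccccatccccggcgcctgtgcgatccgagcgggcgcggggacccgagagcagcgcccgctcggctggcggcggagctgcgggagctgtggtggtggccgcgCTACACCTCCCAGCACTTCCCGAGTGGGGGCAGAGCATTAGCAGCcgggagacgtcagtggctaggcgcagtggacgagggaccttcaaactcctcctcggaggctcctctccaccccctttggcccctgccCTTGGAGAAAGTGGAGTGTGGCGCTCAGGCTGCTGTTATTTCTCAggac
Robo2 promoter, chr16:74411776-74412075, minus strand: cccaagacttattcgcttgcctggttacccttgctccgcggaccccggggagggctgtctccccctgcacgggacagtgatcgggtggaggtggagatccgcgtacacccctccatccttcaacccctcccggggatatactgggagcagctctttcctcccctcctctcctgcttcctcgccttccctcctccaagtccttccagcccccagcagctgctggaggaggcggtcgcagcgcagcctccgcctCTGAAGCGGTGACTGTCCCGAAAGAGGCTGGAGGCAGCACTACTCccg
Epha6 promoter, chr16:60605482-60605781, minus strand: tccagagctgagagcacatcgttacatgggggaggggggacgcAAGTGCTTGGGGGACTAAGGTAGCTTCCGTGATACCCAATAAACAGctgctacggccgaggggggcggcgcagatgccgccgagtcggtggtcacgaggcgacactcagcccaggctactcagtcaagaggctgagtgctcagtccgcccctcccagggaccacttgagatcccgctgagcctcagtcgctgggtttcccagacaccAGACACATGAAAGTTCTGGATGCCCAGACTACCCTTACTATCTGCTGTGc
Efna5 promoter, chr17:62881268-62881567, minus strand: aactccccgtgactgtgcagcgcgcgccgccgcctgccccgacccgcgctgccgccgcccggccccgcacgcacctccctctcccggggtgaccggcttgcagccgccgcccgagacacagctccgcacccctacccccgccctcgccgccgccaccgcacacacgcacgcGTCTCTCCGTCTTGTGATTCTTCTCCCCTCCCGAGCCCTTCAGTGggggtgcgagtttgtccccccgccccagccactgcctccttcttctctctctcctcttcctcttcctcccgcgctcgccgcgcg
Ephb2 promoter, chr4:136835963-136836262, minus strand: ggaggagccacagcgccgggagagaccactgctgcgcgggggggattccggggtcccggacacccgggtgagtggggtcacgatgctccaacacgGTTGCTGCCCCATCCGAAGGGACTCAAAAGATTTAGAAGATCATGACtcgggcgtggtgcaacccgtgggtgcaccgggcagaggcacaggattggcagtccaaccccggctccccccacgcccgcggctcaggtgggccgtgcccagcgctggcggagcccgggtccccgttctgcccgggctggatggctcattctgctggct
The capitals cover 2 probes each in Unc5c and Epha6 and 1 in the other windows. In Unc5c they read 6.12 upstream and 6.77 just after the start. The Robo2 probe, just past the start, read 6.63. In Epha6 the upstream probe read 4.65 and the probe at the start 4.20, the Efna5 probe read 4.87, and the Ephb2 probe read -0.19. The dinucleotide CG, at which mammalian DNA is methylated, occurs 24 times in the window of Unc5c, 17 in that of Robo2, 15 in Epha6, 38 in Efna5 and 24 in Ephb2. The Ephb2 window thus holds as many CG as that of Unc5c. Robo2 has further windows at other starts, in which no probe occurred in full, with 5 and 9 CG.

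No probe of Sdk2 lay in full within its RefSeq window, although probe 4 overlapped the window's end. Its 4 array probes are given as the array design lists them, with CG in capitals and positions on the unstated genome build of the files.
Sdk2 probe 1, chr11:113882253-113882297: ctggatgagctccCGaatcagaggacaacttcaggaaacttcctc
Sdk2 probe 2, chr11:113882490-113882534: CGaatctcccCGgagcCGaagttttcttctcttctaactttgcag
Sdk2 probe 3, chr11:113882641-113882685: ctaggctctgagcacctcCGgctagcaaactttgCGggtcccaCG
Sdk2 probe 4, chr11:113883065-113883109: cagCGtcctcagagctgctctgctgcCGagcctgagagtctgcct
Probe 2 and probe 3, with 3 CG each, had the highest log2 ratios of the 4, at 6.16 and 5.43, and probe 1, with 1 CG, had the lowest, at 2.93.

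Ephrin-A5 was the ligand gene with the highest ratio. Efna5 encodes a lipid-anchored ligand of EphA receptors that repels growing axons. In its start region on chromosome 17 (positions 62566536 to 62567744, annotated by the array design as promoter and gene interior) the signals at 3 months were 65800, 11300, 1220, 7190 and 4130 along the 5 probes. At 32 months the same probes gave 197000, 301000, 65600, 106000 and 16600. Every probe was thus brighter in the older sample, and the median log2 ratio was 4.02, with an SD of 1.77 over the 5 probes, or 16.2-fold. Inside the gene, in the region from position 62371780, 2 usable probes read -0.088 and -0.031, so that the higher signal was seen at the start and not there.

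The other ephrins did not share it. Efna1, which is expressed in epithelia, had a median of -0.13 ± 0.40 over 6 probes, Efna4 -0.097 ± 0.28 over 3 and Efnb3 -0.015 ± 0.29 over 5. Efna2 had 1 usable probe in each of 2 regions, at 0.12 and 0.73, and was not measured. Efnb2, the ligand of EphB receptors on arteries and in the gut, had the lowest median of all member regions, at -0.76 ± 1.37 over 5 probes. Its promoter probes read -0.76, -0.83, -2.05 and -0.27 and its interior probe 1.71, so the probes disagreed in direction and the region was not called.

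Among the Eph receptors 1 of 14 genes was called, and 11 of their 15 regions lay above 0. Epha6, a receptor found mainly in the nervous system, had signals at 3 months of 116, 57700, 25200, 14500, 1120 and 1840 along its 6 usable probes on chromosome 16 (60546907 to 60548464). The 32-month signals were 117, 999000, 422000, 330000, 2520 and 3830. The first probe was nearly equal at both ages, the next 3 differed by log2 ratios of 4.25, 4.20 and 4.65, and the last 2 by no more than 1.31. The median was 2.76 ± 1.96. A further probe among the bright ones, left out for an outlier flag, read 4.21, and with it the median was 4.20.

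Epha10, which encodes a receptor without an active kinase, had a median of 3.77 ± 2.58 over 5 probes on chromosome 4 (124383125 to 124384391). Its usable probes read -0.13, 3.98, 4.15, 3.77 and -1.23 in order, so a stretch of 3 bright probes lay between flanks that did not share the direction, and the region was not called. The median was 1.87 with dim probes kept, and the mean over the usable probes was 2.11. The signals of these 3 were 10600, 7720 and 18000 at 3 months and 168000, 137000 and 247000 at 32 months. The sequences of the bright stretch, probes 3 to 5, and of the flanking probes 2 and 6 are given below with CG in capitals.
Epha10 probe 2, chr4:124383329-124383373: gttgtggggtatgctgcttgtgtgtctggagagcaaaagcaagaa
Epha10 probe 3, chr4:124383595-124383639: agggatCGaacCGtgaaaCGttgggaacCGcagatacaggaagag
Epha10 probe 4, chr4:124383810-124383857: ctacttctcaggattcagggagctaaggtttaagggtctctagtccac
Epha10 probe 5, chr4:124383979-124384023: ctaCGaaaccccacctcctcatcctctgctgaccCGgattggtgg
Epha10 probe 6, chr4:124384344-124384391: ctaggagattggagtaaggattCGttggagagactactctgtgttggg
Probe 4, which holds no CG, read as high as its neighbours, which hold 4 and 2.

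The Eph receptors of the intestinal crypt were not called. Ephb2, which marks stem and progenitor cells at the crypt base, had a median of -0.32 ± 0.59 over 4 probes, with 6320 at 3 months and 4985 at 32 months as median signals. Ephb3, its close relative, had 0.54 ± 0.60 over 4 probes, with median signals of 11325 and 24410, and its median was 1.26 after normexp correction, a model-based way to subtract local background, and 0.13 with dim probes kept. Within it the 2 promoter probes read 0.14 and 0.12 and the 2 interior probes 1.33 and 0.94, with interior signals of 20400 and 32000 at 3 months and 46600 and 55600 at 32 months. Ephb4, a receptor of veins, stood at -0.15 ± 0.23 over 7 probes. Epha2, an epithelial receptor, stood at 0.24 ± 0.60 over 5 probes. The remaining Eph receptors, Epha1, Epha3, Epha4, Epha5, Epha7, Epha8, Ephb1 and Ephb6, had region medians from -0.25 in Epha7 to 0.58 in Epha5.

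**Figure D1:**
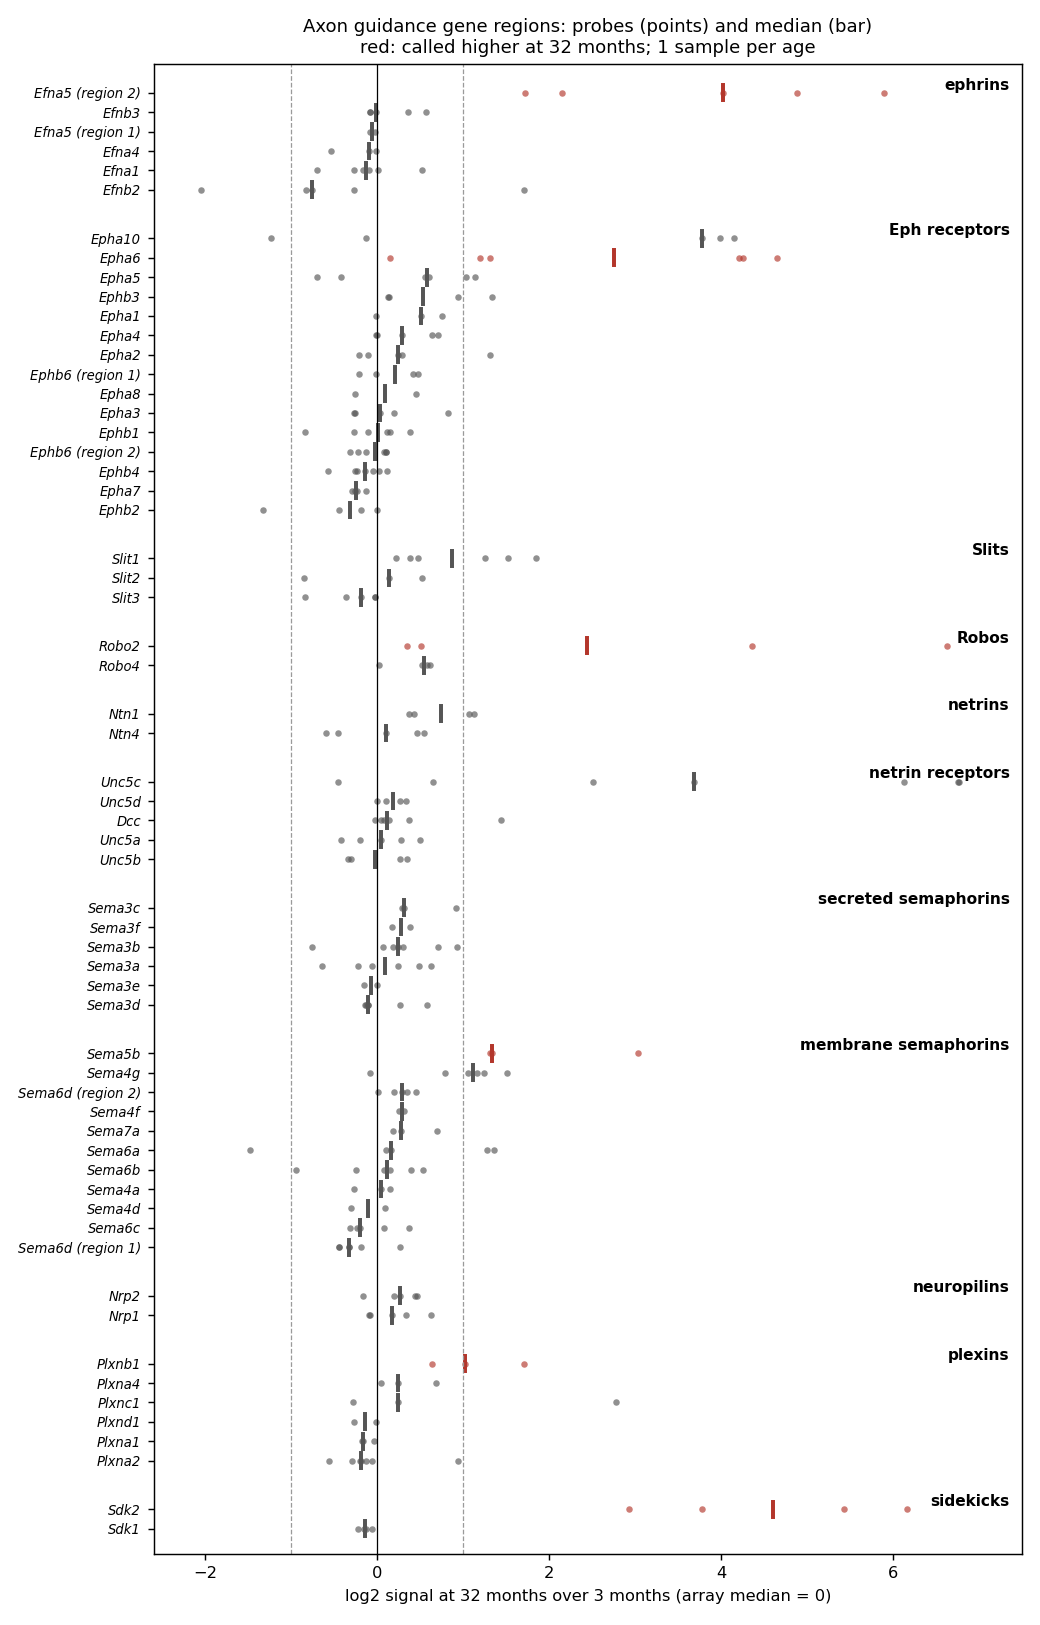
Log2 ratio of 32-month over 3-month signal (x axis, centred on the array median) for the 60 measured regions of axon guidance genes, grouped by family; points are usable probes, bars are region medians, red marks the 6 called regions and dashed lines stand at -1 and 1. Most medians lie close to 0, while Sdk2, Efna5, Epha10, Unc5c, Epha6 and Robo2 extend far to the right, with wide spreads among their probes.

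Among the Slit ligands and Robo receptors Robo2 was called higher. Robo2 is a receptor by which Slits repel axons, and it also acts in kidney development. Its region on chromosome 16 (74293333 to 74294835) changed from dim to bright along its length. From the first to the last of 6 probes the 3-month signals were 63.1, 68.1, 61.3, 203, 2230 and 15300 and the 32-month signals 81.7, 59.7, 50.9, 235, 200000 and 285000. Probes 2 and 3 were not well above background at either age and were left out, and the first was not at 3 months, so its ratio of 0.51 is a bound. The last 2 probes, both annotated as promoter, read 6.63 and 4.36, which made a median of 2.44 ± 3.07 over 4 probes. With dim probes kept the median was 0.43 and the region was not called, and with only probes well above background at both ages it was 4.36 and called.

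Robo4, the receptor of blood vessels, had 0.54 ± 0.27 over 4 probes, all above 0. Slit1 had 0.86 ± 0.68 over 6 probes on chromosome 19, every one above 0, which left it short of the threshold by its median alone. Its 3-month signals ran from 67.3 to 5360 and its 32-month signals from 175 to 6340. Slit2 had 0.13 ± 0.71 over 3 of its 7 probes and Slit3 -0.19 ± 0.34 over 5, the latter with every probe below 0. The array design annotates both of these regions as gene interior only, so no promoter probe of Slit2 or Slit3 was read. The 3 Slit genes thus lay on different sides of 0. No probe carried the name of Robo1 or Robo3.

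Among netrins and their receptors Unc5c stood apart by its size. Unc5c is a repulsive netrin receptor that also triggers cell death when netrin is lacking. Its 7 probes on chromosome 3 (141402100 to 141403397) gave 637, 13800, 73500, 8060, 8430, 5080 and 18800 at 3 months, and 1000, 10100, 419000, 563000, 920000, 550000 and 243000 at 32 months. Their log2 ratios were 0.65, -0.45, 2.51, 6.12, 6.77, 6.75 and 3.69, so the first 2 probes differed little and in opposite directions, and the next 5, from the promoter into the gene, were higher in the older sample. The median of 3.69 ± 2.96 is a 12.9-fold difference, and the probe at -0.45 kept the region from being called. After normexp correction it was called at 4.07.

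The other netrin receptors did not show this. Dcc, whose loss in colorectal cancer gave it its name, had 0.11 ± 0.55 over 6 probes, with 1 probe at 1.43. Unc5a had 0.041 ± 0.36 over 5 probes, Unc5b -0.021 ± 0.37 over 4 and Unc5d 0.19 ± 0.15 over 4, and the highest of their probes read 0.50. Netrin-1, the attractant made in the floor plate of the spinal cord, had 0.75 ± 0.40 over 4 probes, each above 0, with median signals of 5400 and 8280. It fell short of the threshold and passed it after normexp correction, at 1.23. Ntn4 had 0.10 ± 0.52 over 5 probes.

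The secreted semaphorins, repellents that bind neuropilins, gave no call. Their 6 medians ran from -0.10 in Sema3d to 0.31 in Sema3c, with Sema3a at 0.089 ± 0.48 over 6 probes, Sema3b at 0.24 ± 0.53 over 7 and Sema3f at 0.28 ± 0.15 over 2. SEMA3B and SEMA3F are known as tumour suppressor genes in man. Nrp1 had 0.17 ± 0.30 and Nrp2 0.26 ± 0.25, over 5 probes each. None of these medians reached the threshold in either direction.

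The membrane-bound semaphorins held 1 call among 10 measured genes. Sema5b, a semaphorin with thrombospondin repeats, had 3-month signals of 7920, 36100 and 4050 on chromosome 16 (35460206 to 35461431) and 32-month signals of 18100, 81100 and 30100. The interior probe read 3.03 and the promoter probes 1.33 and 1.31, for a median of 1.33 ± 0.99. Sema4g had 1.11 ± 0.56 over 6 probes on chromosome 19. Its first 5 probes, all promoter, lay between 0.79 and 1.51 and its interior probe at -0.085, which kept it from being called, and it was called after normexp correction at 1.11. Sema6d, with 2 measured regions, had -0.33 ± 0.27 in the one and 0.29 ± 0.17 in the other. Sema5a had 1 usable probe, at 0.32, and was not measured. The remaining Sema4, Sema6 and Sema7a regions lay between -0.20 and 0.28.

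Among the plexins, the receptors of semaphorins, Plxnb1 was called higher with the smallest margin. Plxnb1 is the receptor of Sema4d. Its promoter probes on chromosome 9 (108951981 to 108952409) gave 173000, 6360 and 6220 at 3 months and 245000, 11700 and 18500 at 32 months, with a median of 1.02 ± 0.54. Uncentred, this median was 0.88, and after loess correction for brightness 0.93, so the call did not hold under either. Plxna1 stood at -0.16 ± 0.080 over 3 probes. Plxnc1 had 0.24 ± 1.64 over 3 probes, of which 1 read 2.78. The other plexins had medians from -0.19 in Plxna2 to 0.24 in Plxna4.

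The Sidekicks, adhesion proteins that match synaptic partners in the retina, differed from each other. The Sdk2 promoter on chromosome 11 (113882253 to 113883109) gave 12500, 13700, 11600 and 4130 at 3 months and 86200, 888000, 453000 and 51400 at 32 months. The median of 4.60 ± 1.48 is a 24.3-fold difference and the eighth highest of 14835 measured autosomal regions. Sdk1, on the first array, gave -0.14 ± 0.070 over 4 probes, all between -0.23 and -0.059. Every Sdk2 probe lay above 0, as a call demands, and every Sdk1 probe below 0, so their probe ranges could not overlap. On the same scale of rank Efna5 stood at 24, Epha10 at 36, Unc5c at 38, Epha6 at 68, Robo2 at 92, Sema5b at 275, Sema4g at 365 and Plxnb1 at 433.

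**Figure D2:**
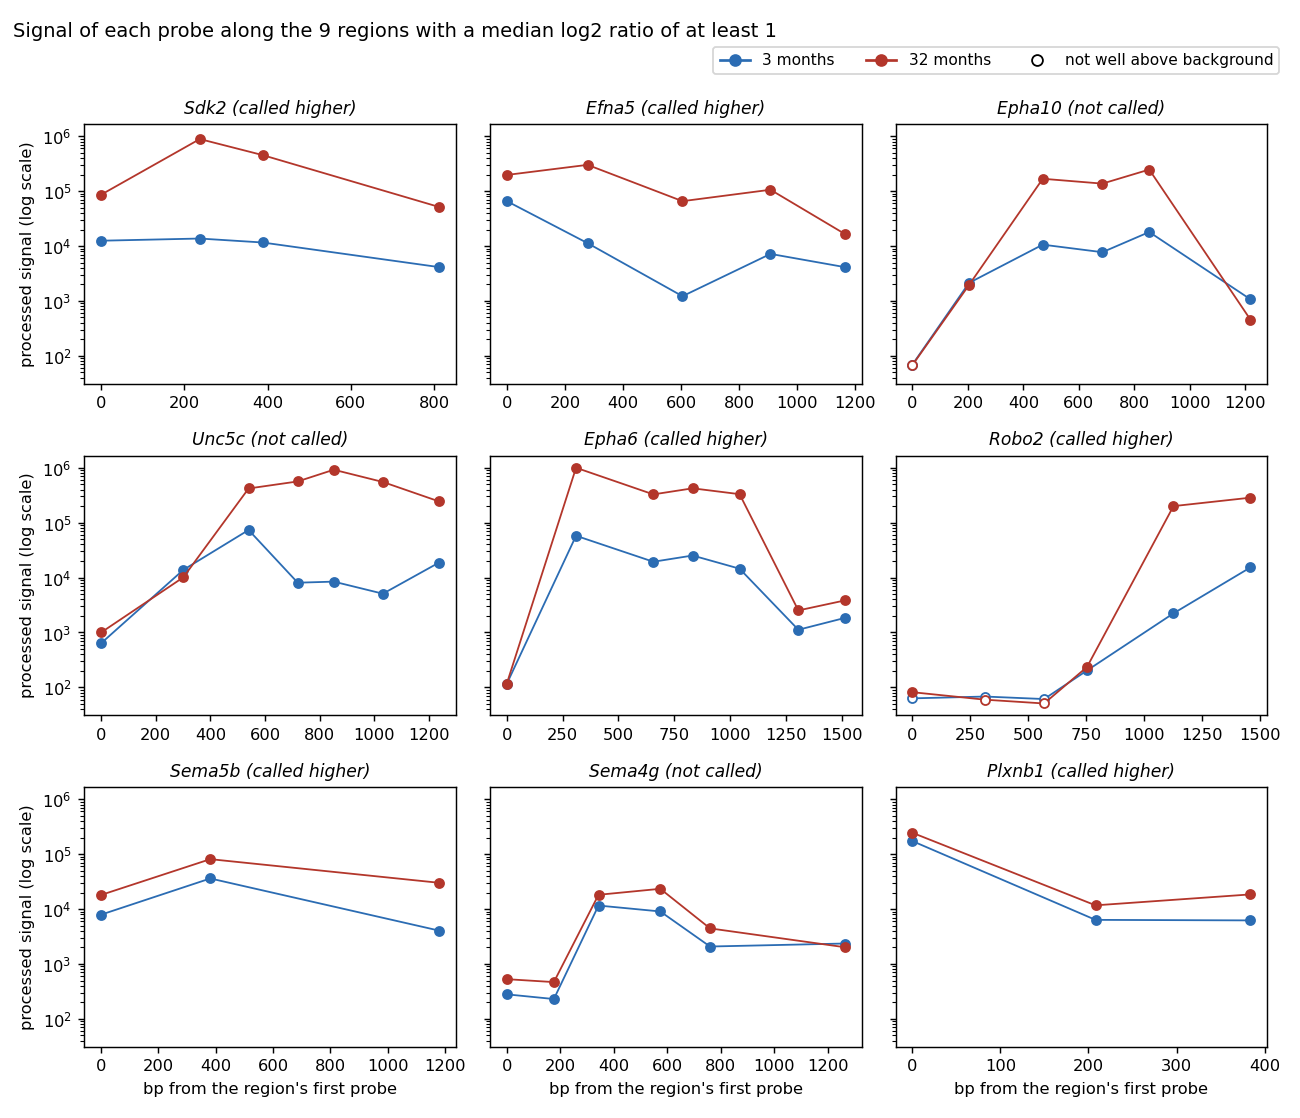
Processed signal (y axis, log scale) of each probe at 3 months (blue) and 32 months (red) against distance in bp from the first probe of the region, for the 9 regions with a median log2 ratio of at least 1; open points were not well above background. In Epha10, Unc5c, Epha6 and Robo2 the ages coincide at some flanking probes and part over a contiguous stretch, while in Sdk2 and Efna5 every probe is higher at 32 months.

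By the median over usable probes, the members with high ratios were already bright at 3 months. In Robo2 this median, 1216.5, covered 4 usable probes that ran from 63.1 to 15300, with dim probes left out. In each of the 9 regions with a median of at least 1 the 3-month signal lay in the brightest of 4 equal groups of the measured autosomal regions of its array. This group held 20 member regions, of which 6 (30%) were called higher, beside 5.2% of all 3709 autosomal regions in it. In the other groups, from dim to bright, 0 of 15, 0 of 16 and 0 of 9 member regions were called, beside 0.916%, 0.701% and 1.38% of autosomal regions. The 3-month signal is also the denominator of the ratio, so these shares are a description. Bright members without a difference existed as well. Sema4f had median signals of 9595 and 11750, Ephb2 6320 and 4985, and Plxnd1 3770 and 3230.

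**Figure D3:**
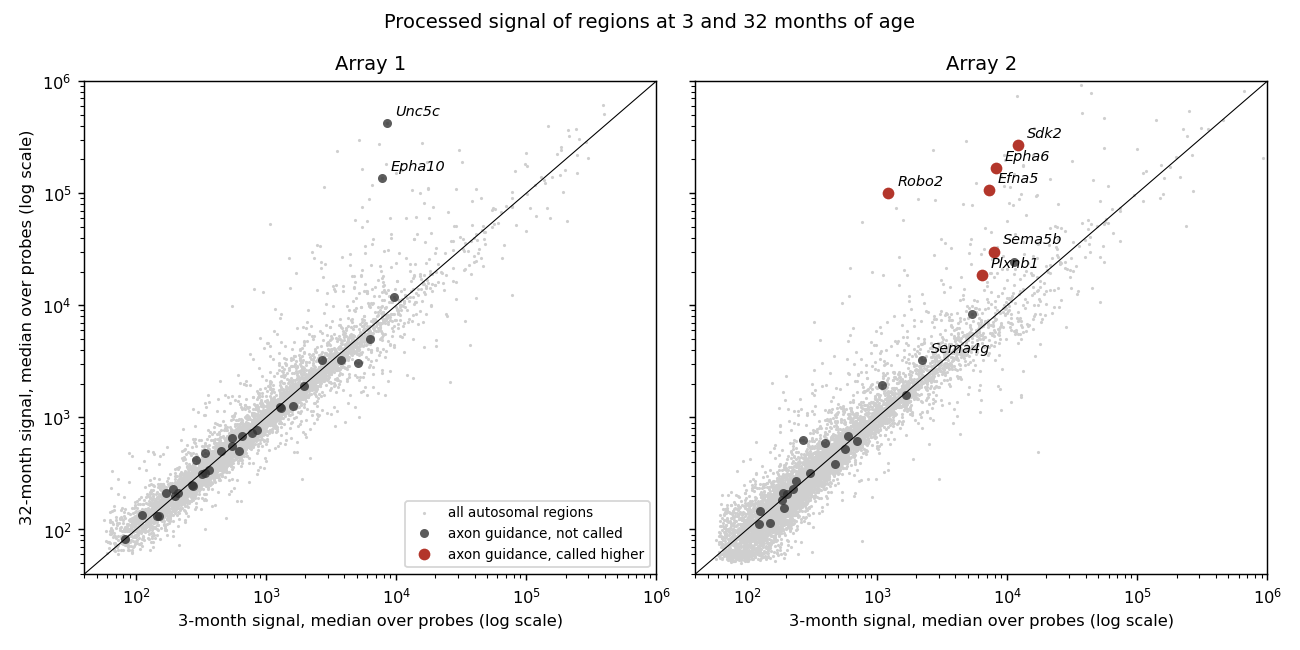
Median processed signal of each measured region at 3 months (x axis) and 32 months (y axis), both on log scales, for the array of chromosomes 1 to 8 (left) and that of chromosomes 9 to 19 (right); grey points are all autosomal regions, black and red points the axon guidance regions, and the line marks equal signal. The named regions lie above the line at 3-month signals between 1216.5 and 12050, and most other members follow the line.

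All 6 called regions were on the second array, where 27 member regions were measured, 22.2% of them called, beside 2.76% of 7311 autosomal regions there. On the first array 0 of 33 member regions were called, beside 1.36% of 7524, although Unc5c and Epha10, with medians of 3.69 and 3.77, belong to it. No member was called lower on either array, beside 0.585% of autosomal regions on the array of chromosomes 1 to 8 and 0.451% on the other. By the median alone, without the demand that probes agree, 2 of 33 (6.06%, beside 2.15%) reached 1 on the first and 7 of 27 (25.9%, beside 3.94%) on the second. Chromosome 16 carried 3 of the 6 calls, Epha6, Robo2 and Sema5b, among 5 member regions, beside 2.94% of its 476 regions called higher. Over the whole set the median gene value was 0.13, beside 0.016 for all autosomal genes, and 39 of 57 members (68.4%) lay above 0, beside 52.6%. Array and genes cannot be told apart here, since each gene lies on 1 array.

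**Figure D4:**
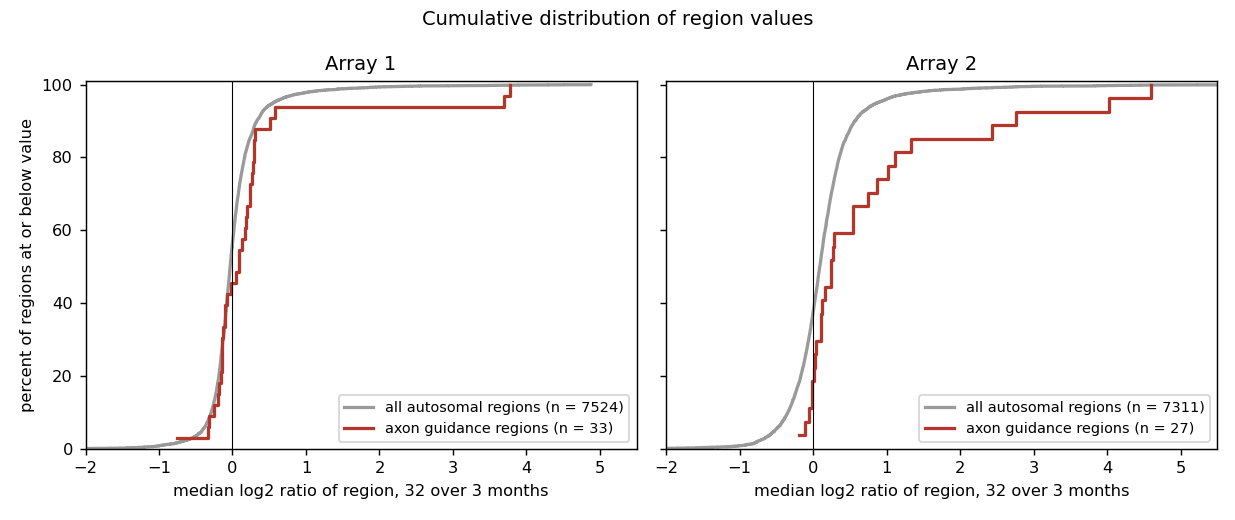
Percent of regions (y axis) at or below a given median log2 ratio (x axis) for axon guidance regions (red) and all autosomal regions (grey) on each array. On array 1 (chromosomes 1 to 8) the curves run close except for 2 regions past 3, and on array 2 the red curve lies to the right of the grey over most of its course, with 7 of 27 regions at or above 1.

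Single probes were counted as well. Of 271 usable member probes 47 (17.3%) read at least 1, beside 6.43% of all autosomal probes, and 4 (1.48%) read at most -1, beside 3.07%. The share at or above 1 was 18.3% of 175 promoter probes and 15.6% of 96 interior probes of the members, beside 6.19% and 6.95% of all. Among member probes with 2 or more CG it was 25.3%, with 1 CG 13.5% and with none 14.1%, beside 8.59%, 6.52% and 4.82% of all autosomal probes. Member probes held a CG in 66.1% of cases and all probes in 59.2%. Probes of a region share their target, so these are not independent counts.

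Member promoters held more CG than RefSeq promoters at large. The median was 21 CG in 61 windows of the members, beside 7 in 32851 windows of all listed RefSeq genes. Those 32851 windows were not limited to genes on the arrays, and no comparison limited so was made. The motif CCCGGG, which reads alike on both strands and contains CG, occurred in 24.6% of the member windows and 13.5% of all. It is the site of the restriction enzymes SmaI and XmaI, which are used to sort DNA by methylation; their use here is not given in the sources used here. Of the members with a median of at least 1, it occurred in the windows of Efna5, Sdk2 and Plxnb1 and in the Robo2 window shown above. It was absent from the other Robo2 windows and from those of Unc5c, Epha6, Epha10, Sema5b and Sema4g.

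Other genes of these pathways were taken from a list of 66, of which 49 were measured on autosomes. Of these 2 (4.08%) were called higher and none lower, beside 2.33% and 0.628% of all genes, and their median was 0.10. Crmp1, an intracellular mediator of semaphorin signals, was called in both of its regions, at 3.12 ± 1.22 over 7 probes and 1.83 ± 0.77 over 5. Cxcl12, a chemokine that also guides axons, was called at 2.94 ± 0.98 over 5 probes. Chl1, an adhesion protein that associates with semaphorin receptors, had 4.39 ± 2.71 over 6 probes, with 1 probe at -0.23, and was not called.

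The measurements came from most but not all of the spots. On the arrays in turn 78.2% and 86.7% of the member probes were usable, beside 74.2% and 77.0% of all autosomal probes, and no probe was saturated. In 43 of the 60 regions every usable probe was well above background at both ages. On the X chromosome, which the rule leaves out, 20 of 508 regions (3.94%) were called lower at 32 months and 3 (0.591%) higher, and the sex of the animals is not given. The labels name intestine with no layer or cell type, so a change in the mix of cells and a change within cells cannot be told apart. Of the marker genes of epithelium (8 measured), smooth muscle (6), neurons and glia (7), immune cells (7) and stroma (5) none was called in either direction, with list medians from -0.13 to 0.22 and single values from -0.53 to 0.98. Their part in the results was not tested.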

How the data were processed

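Genomic DNA of mouse intestine at 3 and 32 months was hybridised to 2 Agilent 2-colour arrays with 1 sample per age on each. The submitters' processing notes name Agilent Feature Extraction, version 9.1.3.1. The intensity values taken here are the deposited processed signals, which the authors' software had background-subtracted, detrended and scaled linearly between dyes, per the file headers. The 2 files deposited for an array were identical, and green was read from the one and red from the other. The authors' value table equalled these signals in 100% of spots. The genome build is not given in the sources used here.

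Log2 ratios of red over green were centred on the array median, 0.0044 for chromosomes 1 to 8 and -0.14 for the others. Control spots, outlier-flagged probes and probes not well above background in either channel were left out. The region and calling rules are given with the results, and a gene's value is the mean over its regions. Named are genes with a called region, regions with a median of at least 1 or at most -1, 21 genes fixed by name, and the extremes of each family. Further genes and single probes were named after their values were seen. The members and lists were chosen with earlier results of these data known. Loess and normexp (offset 50) alternatives used limma 3.58.1 in R 4.3.3, and the rest Python 3.11.15. The calling rule was tried on the observed log ratios, shuffled among the usable probes of each array, with known shifts added to some regions. The shuffle removes the likeness of neighbouring probes, so it cannot show how often calls on the real arrays are right. The number of arrays limits the precision.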

Additional observations from a re-analysis of the deposited data

How the results depend on the processing

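With 1 sample per age no alternative measures variation between animals, and dim probes limit the ratios of weak regions. No paired analysis was possible because each group holds 1 sample and no test was made. Of 12 alternative settings, 11 left the number of genes called higher within 1.5 times the 6 reported, from 4 at a threshold of 1.5 to 9 without the demand that probes agree. Among all 14018 autosomal genes the threshold of 1.5 called 168 higher and dropping the demand 479, beside 326 as reported. The background thus moved in the same direction as the members under both. A joining gap of 500 bp gave 7 members called higher, adding Epha5, beside 367 of the 13706 autosomal genes then measured. Normexp background correction gave 10 members called higher, adding Ntn1, Plxnc1, Sema4g and Unc5c. It moved the median of all autosomal genes from 0.016 to 0.11 and their calls from 326 higher and 88 lower to 435 and 8, and uncentred ratios gave 253 and 118. The same correction raised Sdk2 to 5.28, Efna5 to 4.82, Epha6 to 3.42, Sema5b to 2.18 and Plxnb1 to 1.79. No setting called a member lower. Each array on its own, a split chosen after the data were seen, gave 0 member genes called higher on the first and 6 on the second. Of all autosomal genes 1.52% on the first and 3.16% on the second were called higher. The median gene value of the members was 0.089 on the first, beside -0.031 for all autosomal genes. On the second it was 0.26, beside 0.086 for all autosomal genes. The median over all members stayed between 0.094 and 0.18 under the 10 settings that apply to it. After normexp correction it was 0.14, beside 0.11 for all autosomal genes. That is a smaller distance than 0.13 beside 0.016 as reported. Sdk2, Efna5 and Epha6 were called under all 12 settings. The Epha6 call had a thin margin at its first probe, with signals of 116 and 117 and a centred log2 ratio of 0.15. Of 259 values of the 26 named regions recomputed under the 10 settings that give one, 253 kept their call status. Among the rest 3 lost a call (Plxnb1 under 2 settings, Robo2 under 1) and 3 gained one (Unc5c, Sema4g and Ntn1 after normexp correction). No called region turned its sign. The authors' value table, counted among the settings in both tallies, held the same signals as the main values, so its agreement was fixed in advance. Keeping outlier flags concerned only 1 member probe, so these tallies overstate how far the settings differ.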

Other observations

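X-linked genes of the same families were outside the rule. Efnb1, which encodes an ephrin-B ligand of the crypt receptors, had a log2 ratio of -4.98 ± 0.51 over 6 probes, from -5.17 to -3.80, with median signals of 31800 at 3 months and 1070 at 32 months. Plxna3, a plexin on the same chromosome, had 0.22 ± 0.26 over 4 probes. The median over 508 measured X regions was -0.071, with quartiles at -0.34 and 0.13. The sex of the animals is not given in the sources used here.

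Netrin relatives whose array names fell outside the rule were not called. Ntng1 had -0.094 ± 0.36 and Ntng2 0.12 ± 0.16, over 7 probes each, and Ntn2l 0.44 ± 1.30 over 6 probes, of which the highest read 3.19.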
